A study of Homo sapiens with 4 samples.

Results

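Glutathione S-transferases were followed across single-cell RNA libraries of a prostate cancer line and its drug-resistant derivatives. Members were taken by symbol, and all 10 listed genes were found among the 33538 genes of each matrix: the alpha class genes GSTA1, GSTA2 and GSTA4, the pi class gene GSTP1, the mu class gene GSTM3, the kappa class gene GSTK1, the omega class gene GSTO1, and the membrane-bound MGST1, MGST2 and MGST3. The study held 1 library for each of 4 groups. LNCaP, an androgen-sensitive line from a metastasis of a human prostate cancer, received the solvent DMSO at 0.1% for 48 h. LNCaP-ENZ48 was the same line given 10 µM of the androgen receptor antagonist enzalutamide for 48 h. RES-A and RES-B were enzalutamide-resistant lines raised from LNCaP, RES-A under rising enzalutamide and RES-B under the related antagonist RD-162, and both were kept in 10 µM enzalutamide. Each resistant line was a single derivation, so line, drug history and library cannot be told apart, and with 1 library per group no test between conditions was possible.

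Glutathione S-transferases join the tripeptide glutathione to reactive, electron-seeking molecules, which makes them more soluble and ready for export. The cytosolic classes act on drugs, pollutants and products of lipid peroxidation, the kappa enzyme sits in mitochondria and peroxisomes, and the microsomal enzymes lie in membranes, where MGST2 can also make leukotriene C4. In prostate, GSTP1 is best known as a gene of normal basal cells that is silenced with promoter methylation in most prostate cancers, LNCaP included; alpha class genes are best known from liver, and some genes of the family answer to the stress-response factor NRF2.

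The kept cells numbered 1782 to 4569 per library, with 50208831 to 60838227 UMIs (unique molecular identifiers, which tag single captured RNA molecules). Median UMIs per cell were 27079.5 in LNCaP, where the study had set higher limits, and 12138 to 13676 in the others. Kept barcodes shared by a pair of libraries numbered 2 to 9. All 8 luminal prostate markers were detected in all 4 libraries, with a summed level of 1587 to 2633 CPM (UMIs per 1000000 UMIs of the library), while the 3 basal markers summed to at most 0.299 CPM and the 3 immune markers to at most 0.105 CPM. The 4 stroma markers summed to 1.92 to 3.25 CPM, mostly COL1A1, and the 2 endothelium markers to 0.115 to 1.04 CPM. The androgen receptor targets KLK2 and KLK3, however, were almost absent in RES-A, at 0.0872 and 0.0349 CPM against 319 and 718 CPM in LNCaP.

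The upstream sequences of 3 members are shown, since GSTA1 and GSTA2 had the largest differences and GSTP1 was nearly undetected. The part of these sequences in the levels was not tested. They are the 250 bases before the RefSeq start on GRCh38.p14, read 5′ to 3′ on the gene's strand. GSTA1 (chr6:52803817-52804066, minus strand) and GSTA2 (chr6:52763476-52763725, minus strand) had the same base at 243 of 250 positions (97.2%), and capitals mark the 7 that differ. In GSTP1 (chr11:67583562-67583811, plus strand) capitals mark a match to the antioxidant response element TGACNNNGC, which begins at position -66 from the start and overlaps a match to the AP-1 motif TGANTCA.
GSTA1: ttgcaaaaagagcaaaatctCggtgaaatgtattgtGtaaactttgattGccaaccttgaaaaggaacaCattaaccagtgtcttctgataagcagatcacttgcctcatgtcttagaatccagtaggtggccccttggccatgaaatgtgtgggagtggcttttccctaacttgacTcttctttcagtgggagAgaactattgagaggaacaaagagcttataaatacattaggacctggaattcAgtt
GSTA2: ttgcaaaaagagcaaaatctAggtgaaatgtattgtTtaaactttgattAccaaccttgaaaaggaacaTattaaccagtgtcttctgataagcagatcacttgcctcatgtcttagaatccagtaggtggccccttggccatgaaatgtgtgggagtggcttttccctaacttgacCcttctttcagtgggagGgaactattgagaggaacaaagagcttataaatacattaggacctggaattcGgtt
GSTP1: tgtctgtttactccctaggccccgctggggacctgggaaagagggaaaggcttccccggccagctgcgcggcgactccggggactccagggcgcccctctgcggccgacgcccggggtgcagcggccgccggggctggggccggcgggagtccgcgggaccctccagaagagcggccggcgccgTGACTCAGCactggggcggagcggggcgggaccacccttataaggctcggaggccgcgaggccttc
Read on both strands, TGACNNNGC was found in 10.9% and TGANTCA in 6.57% of 35116 RefSeq windows of that length. Among the 9 members with a window, TGACNNNGC was also found once in GSTA4 and at 2 places in GSTO1, whereas neither set of letters was in the GSTA1 or GSTA2 window. GSTP1 had 28 CG pairs in its window, against 1 each for GSTA1 and GSTA2 and a median of 11 over all windows. Methylation was not measured in these libraries. In GENCODE 44, GSTP1 lies on chromosome 11 (67583742 to 67586656, plus strand), GSTA4 on chromosome 6 (52977948 to 52995304, minus strand), GSTK1 on chromosome 7 (143244093 to 143270854, plus strand), GSTO1 on chromosome 10 (104235356 to 104267459, plus strand) and MGST1 on chromosome 12 (16347142 to 16609259, plus strand). MGST2 lies on chromosome 4 (139665768 to 139740745, plus strand), and chromosome 1 holds both GSTM3 (109733932 to 109741038, minus strand) and MGST3 (165631213 to 165661796, plus strand).

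Levels are given as CPM with exact Poisson 95% intervals, and differences as log2 ratios of CPM with exact binomial 95% intervals. Both cover counting error within a library only, not the spread between cultures. Each captured molecule was counted once at its 3′ end, so transcript length does not enter a comparison of CPM between genes. Fewer expressing cells and less RNA per cell cannot be told apart in a summed level.

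The 10 members together made up 1136 CPM in LNCaP, 1265 CPM in LNCaP-ENZ48, with 1733 CPM for RES-A and 1437 CPM for RES-B. All 3 exposed libraries thus lay above LNCaP, with log2 ratios of 0.15 (0.14 to 0.17), 0.61 (0.59 to 0.62) and 0.34 (0.32 to 0.35). MGST1 was the most abundant member in every library and held 35.9% to 39.6% of the members' UMIs, followed by GSTM3 with 18.6% to 23.7%. GSTA1 held 8.87% of them in RES-A, against 1.87% in RES-B, 2.06% in LNCaP-ENZ48 and 1.46% in LNCaP.

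**Figure D1:**
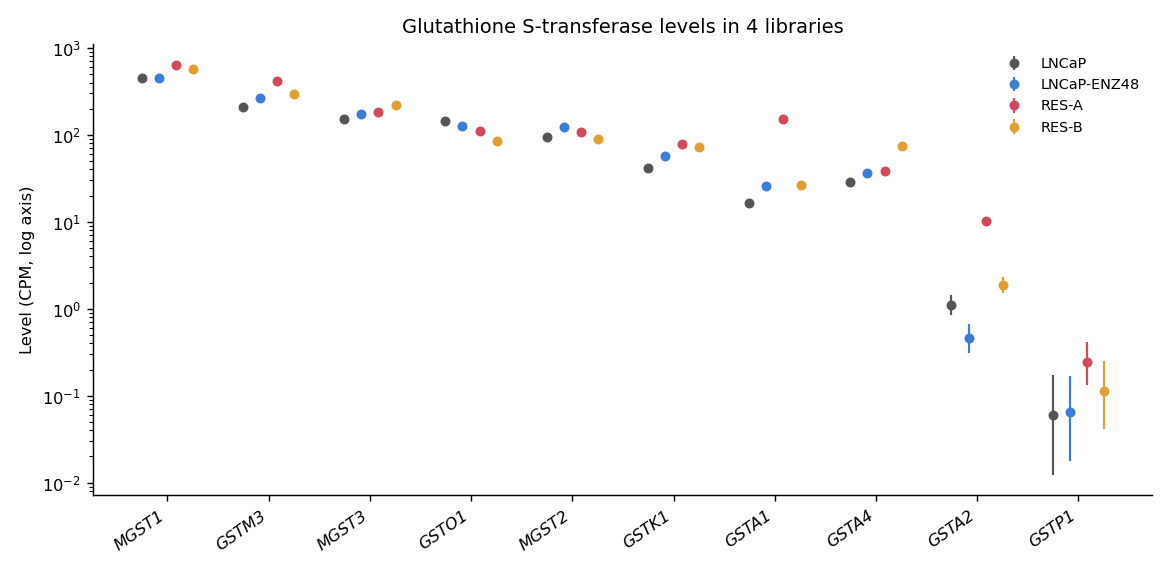
Level of each member in CPM on a log axis, with 1 point per library and bars for the exact Poisson 95% interval. MGST1 lies at 447 to 639 CPM in all libraries, GSTA1 stands at 154 CPM in RES-A against 16.6 to 26.8 CPM elsewhere, and GSTP1 stays below 0.25 CPM.

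Few members passed 2-fold. In each comparison 8 of the 10 members reached a mean of 10 CPM; GSTA2 and GSTP1 did not. In LNCaP-ENZ48 against LNCaP, 0 of the 8 were at least 2-fold higher (all genes, 0.192%) and 0 at least 2-fold lower (all genes, 0.645%). In RES-A against LNCaP, 1 of the 8, GSTA1, was at least 2-fold higher (all genes, 3.74%) and 0 were at least 2-fold lower (all genes, 4.15%). In RES-B against LNCaP, 1 of the 8, GSTA4, was at least 2-fold higher (all genes, 4.82%) and 0 were at least 2-fold lower (all genes, 3.08%). Between the resistant lines, RES-B over RES-A gave 0 of 8 at least 2-fold higher (all genes, 3.37%) and 1, GSTA1, at least 2-fold lower (all genes, 1.7%). With 8 genes, 0 or 1 past 2-fold is too few to set the family's share apart from these backgrounds.

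Smaller differences lay mostly on the higher side. Over the 8 members the median log2 ratio to LNCaP was 0.34 for LNCaP-ENZ48, 0.47 for RES-A and 0.51 for RES-B, beside -0.07, 0.02 and 0.11 over all genes tested. The 3 comparisons share the LNCaP library, so a low value in that library would raise all 3 medians. Of the 8 members, 6 lay above LNCaP in RES-B and 7 in each of the other exposed libraries. GSTO1 was the member below it in all 3. The 7 in LNCaP-ENZ48 include MGST1, which was within counting error of LNCaP (log2 ratio 0.02, -0.00 to 0.05). The share of all genes above LNCaP was not counted, so these counts of members have no background beside them and are no result about the family.

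**Figure D2:**
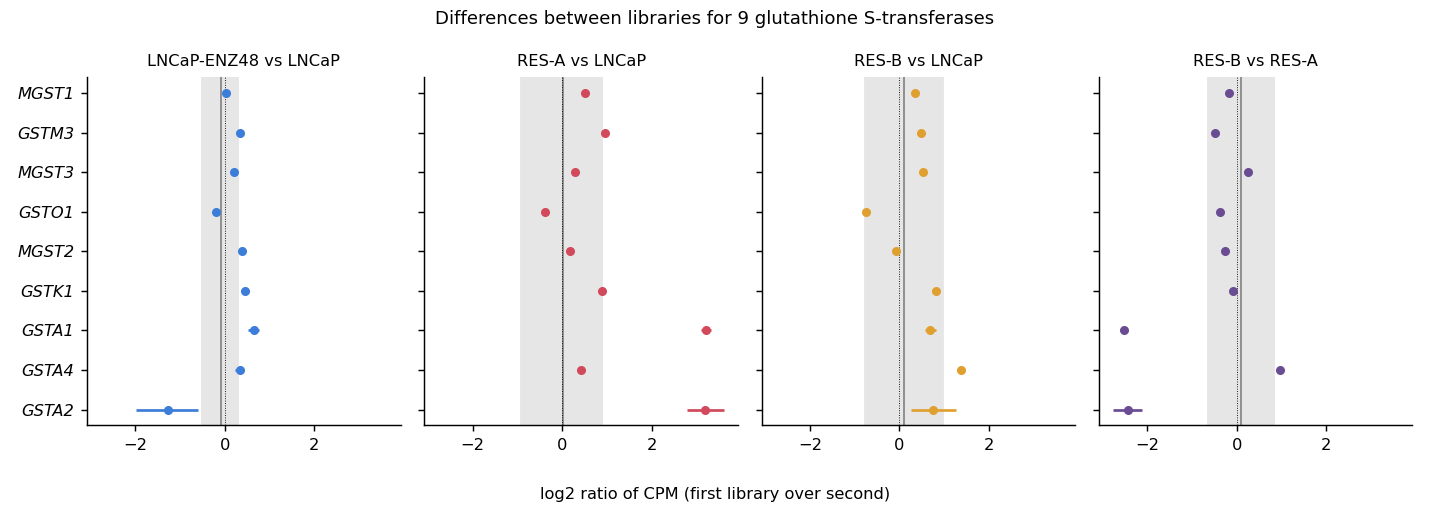
Log2 ratios of CPM for 9 members in the 4 comparisons, with exact binomial 95% intervals; GSTP1 is left out for its low counts. The grey band spans the 5th to 95th percentile of all genes tested and the grey line their median, and GSTA1 and GSTA2 lie above 3 in RES-A against LNCaP and below -2.4 in RES-B against RES-A.

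GSTA1, the alpha class enzyme known for steroid isomerase as well as conjugating activity, stood furthest from LNCaP. It was counted at 16.6 CPM in LNCaP (831 UMIs), 26.0 CPM in LNCaP-ENZ48 (1582 UMIs), 154 CPM in RES-A (8815 UMIs) and 26.8 CPM in RES-B (1410 UMIs). RES-A was thus high alone, and RES-B and LNCaP-ENZ48 had nearly the same level, with a log2 ratio between them of 0.04 (-0.06 to 0.15). Against LNCaP, GSTA1 was 9.29-fold higher in RES-A (log2 ratio 3.22, 3.11 to 3.32), rank 26 from the top among 7428 genes. In LNCaP-ENZ48 the log2 ratio was 0.65 (0.53 to 0.77), rank 43 among 7282 genes, and in RES-B it was 0.70 (0.57 to 0.82), rank 783 among 7570 genes. The same size of ratio therefore stood near the edge of the genes after 48 h of drug, where few genes differed, and well inside them in RES-B. RES-B lay 2.52 below RES-A on the log2 scale (log2 ratio -2.52, -2.60 to -2.44). The 3 liver markers ALB, APOA2 and TTR, of a tissue in which alpha class genes are best known, summed to 2.27 CPM in LNCaP, 2.05 CPM in LNCaP-ENZ48, with 7.43 CPM for RES-A and 6.66 CPM for RES-B, and ALB was at 0 in RES-B. Their sum was higher in both resistant lines, but in RES-B through TTR alone, at 2.09 CPM in LNCaP and 6.64 CPM in RES-B. APOA2 gave 1 or 2 UMIs per library, and ALB stood at 0.159 CPM in LNCaP and 2.56 CPM in RES-A. The part of these markers in the result was not tested.

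GSTA2, the near copy of GSTA1 (GENCODE 44, chromosome 6: GSTA1 at 52791371 to 52803860 and GSTA2 at 52750087 to 52763475, both on the minus strand), had the same order between the resistant lines at a far lower level. It was counted with 56 UMIs in LNCaP (1.12 CPM), 28 in LNCaP-ENZ48 (0.460 CPM), 583 in RES-A (10.2 CPM) and 99 in RES-B (1.88 CPM). RES-A was again high alone, with log2 ratios of 3.19 (2.79 to 3.61) to LNCaP and, for RES-B against RES-A, of -2.43 (-2.76 to -2.12). Unlike GSTA1 it was lower after 48 h of enzalutamide, with a log2 ratio of -1.28 (-1.99 to -0.60) that rests on 28 against 56 UMIs. The canonical transcripts of both genes were 95.2% identical, and 44 of 441 windows of 60 bases in the last 500 bases of each were shared exactly. Reads from such stretches match both genes and are not counted by software that keeps reads of 1 gene, and a misread base can move a read to the other copy, so the levels of the pair are uncertain. How much of the GSTA2 count in RES-A came from GSTA1 molecules was not tested.

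GSTA4, which prefers the lipid peroxidation product 4-hydroxynonenal, had another order. Its level was 28.8 CPM in LNCaP, 36.3 CPM in LNCaP-ENZ48, with 38.6 CPM for RES-A and 75.2 CPM for RES-B. Here RES-B was high alone, at 2.61-fold the level of LNCaP (log2 ratio 1.39, 1.30 to 1.47), while RES-A differed from LNCaP by 0.42 (0.33 to 0.52). RES-B lay above RES-A by 0.96 (0.89 to 1.04) on the log2 scale, the opposite direction from GSTA1. RES-A and LNCaP-ENZ48 were close to each other, with a log2 ratio of 0.09 (0.00 to 0.17). None of the 441 windows of 60 bases at its 3′ end was found in another gene.

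GSTP1 was almost undetected in all libraries. It gave 3 UMIs in LNCaP and 4 in LNCaP-ENZ48, with 14 for RES-A and 6 for RES-B, from 0.0598 to 0.244 CPM. With the libraries ordered by level (RES-A, RES-B, LNCaP-ENZ48, LNCaP), no neighbouring pair differed beyond counting error. RES-A over LNCaP gave a log2 ratio of 2.03 with an interval from 0.19 to 4.47. LNCaP-ENZ48 over LNCaP gave 0.14 (-2.43 to 2.91) and RES-B over LNCaP 0.93 (-1.29 to 3.56). The 3 basal markers, of the prostate cells in which GSTP1 is best known, were also at or near 0.

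GSTM3, a mu class enzyme, and GSTK1, the kappa class enzyme, were highest in RES-A. GSTM3 was counted at 211 CPM in LNCaP, 267 CPM in LNCaP-ENZ48, with 411 CPM for RES-A and 295 CPM for RES-B. The log2 ratio to LNCaP was 0.96 (0.93 to 1.00) in RES-A, just inside 2-fold, and 0.48 (0.45 to 0.52) in RES-B. GSTK1 stood at 42.0, 57.8, 77.8 and 73.5 CPM in the same order. For GSTK1 the resistant lines were close to each other (log2 ratio of RES-B to RES-A -0.08, -0.14 to -0.02) and both lay above LNCaP, by 0.89 (0.81 to 0.97) and 0.81 (0.73 to 0.89). GSTM3 overlaps GSTM5 and a non-coding gene, and GSTK1 overlaps a non-coding gene, in each case on the opposite strand, and counting used the strand.

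GSTO1, the omega class enzyme that reduces dehydroascorbate and methylated arsenic, ran the other way. Its level was 143 CPM in LNCaP, 126 CPM in LNCaP-ENZ48, with 110 CPM for RES-A and 85.8 CPM for RES-B. LNCaP was highest and RES-B lowest, and each neighbouring pair differed beyond counting error. The log2 ratios to LNCaP were -0.19 (-0.24 to -0.15), -0.38 (-0.43 to -0.33) and -0.74 (-0.80 to -0.69).

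Of the microsomal enzymes, MGST1, which also acts as a peroxidase, was counted at 447 CPM in LNCaP, 454 CPM in LNCaP-ENZ48, with 639 CPM for RES-A and 570 CPM for RES-B. LNCaP and LNCaP-ENZ48 did not differ beyond counting error (log2 ratio 0.02, -0.00 to 0.05), and the resistant lines lay above both. MGST3, which also reduces lipid hydroperoxides, stood at 151, 174, 184 and 219 CPM in the same order, highest in RES-B with a log2 ratio to LNCaP of 0.54 (0.49 to 0.58). MGST2 was highest after 48 h of drug, with 94.9 CPM in LNCaP, 123 CPM in LNCaP-ENZ48, with 108 CPM for RES-A and 89.9 CPM for RES-B. It was the member besides GSTO1 that lay below LNCaP in RES-B, by a small amount (log2 ratio -0.08, -0.14 to -0.02). MGST1 overlaps LMO3 and MGST2 overlaps MAML3, both on the opposite strand. MGST1 also overlaps a non-coding gene of the matrices on its own strand, where strand cannot separate the reads, so its level is uncertain to that extent.

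Each cell was thinned to 5000 UMIs, which removes the gap in depth. The share of cells with a UMI then broadly followed the order of the levels. For GSTA1 that share was 5.72% (4.69% to 6.91%, exact binomial interval) in LNCaP and 7.65% (6.87% to 8.48%) in LNCaP-ENZ48, with 41.3% (39.9% to 42.8%) for RES-A and 10.2% (9.26% to 11.1%) for RES-B. LNCaP-ENZ48 and RES-B had nearly the same GSTA1 level, but the share was lower in LNCaP-ENZ48, with intervals that did not overlap. Before thinning the shares were 16.6%, 13.2%, 63.0% and 21.3%, so the order of LNCaP and LNCaP-ENZ48 turns with depth, and the thinned order is the one that goes with the CPM. GSTA4 was found in 11.4%, 16.1%, 17.6% and 29.5% of thinned cells in the same library order, and GSTM3 in 62.0%, 70.2%, 84.9% and 72.8%. MGST1 was found in 85.2% to 92.8% of cells, MGST3 in 53.3% to 65.3%, GSTO1 in 34.3% to 52.2%, MGST2 in 37.1% to 44.7% and GSTK1 in 20.8% to 32.3%. GSTA2 reached 4.31% in RES-A and at most 0.813% elsewhere. GSTP1 was found before thinning in 3 of 1782 LNCaP cells (0.168%) and in at most 0.306% of cells elsewhere. Each library held a single line, so no cell type that should lack these genes was there to measure free RNA, and its part in the low shares was not tested.

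**Figure D3:**
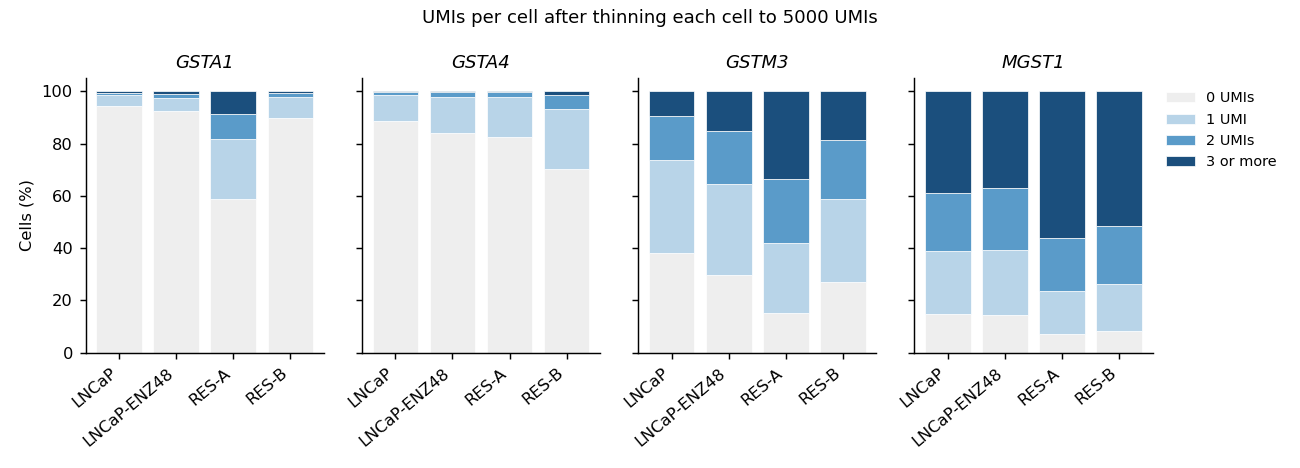
Share of cells with 0, 1, 2 and 3 or more UMIs of GSTA1, GSTA4, GSTM3 and MGST1 in each library, after each cell was thinned to 5000 UMIs. In RES-A 8.71% of cells held 3 or more GSTA1 UMIs against 0.393% to 0.950% in the other libraries, while MGST1 had 3 or more UMIs in 36.9% to 56.2% of cells.

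GSTA1 was also the most uneven member among cells. On thinned counts its variance was 1.70 times its mean in LNCaP and 2.37 times in LNCaP-ENZ48, with 2.26 for RES-A and 1.48 for RES-B, where the median gene of the library gave 1.02. Among 7353 genes over 10 CPM in RES-A it ranked 43 from the top. Among the other members over 10 CPM, MGST1 had 1.26 to 1.36 across libraries and GSTA2, over 10 CPM in RES-A only, had 1.44 there, whereas MGST2 and GSTK1 stayed between 0.961 and 1.10. In LNCaP and LNCaP-ENZ48 the GSTA1 molecules sat in few cells. Unthinned, the 5% of cells with the most GSTA1 UMIs held 67.7% of them in LNCaP and 70.6% in LNCaP-ENZ48, with 28.3% for RES-A and 45.2% for RES-B. These shares were not matched for depth. At matched depth the richest cell held 5 GSTA1 UMIs in LNCaP and 11 in LNCaP-ENZ48, with 21 for RES-A and 5 for RES-B. Unthinned, the top 5% of cells for GSTM3 and for MGST1 held 12.1% to 14.3%. Those 2 genes had 3.76 to 12.6 UMIs per cell against 0.347 to 1.93 for GSTA1, so they are not matched to it in level. GSTA4, with 0.484 to 0.973 UMIs per cell, had 22.2% to 27.5% in its top 5% of cells, near the 28.3% of GSTA1 in RES-A.

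GSTA2 was found more often beside GSTA1 than without it in RES-A. Of thinned RES-A cells with a GSTA1 UMI, 6.14% (5.10% to 7.32%) also had a GSTA2 UMI, against 3.02% (2.41% to 3.74%) of cells without. In the other libraries 2 to 8 cells held both, too few to compare. Cells of 1 library are not replicates, and reads of a near copy counted under the other name would move these shares in the same direction; that was not tested.

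Cells called S or G2/M from their cell cycle genes differed in GSTA1 in the DMSO and 48 h libraries. In LNCaP the level was 19.8 CPM in cells called G1, 9.92 CPM in G2/M and 3.94 CPM in S. In LNCaP-ENZ48 it was 29.3, 8.74 and 12.5 CPM. The S values rest on 16 UMIs from 127 cells in LNCaP and 40 UMIs from 197 cells in LNCaP-ENZ48. GSTA1 molecules sat in few cells of these libraries, so a few rich cells could set such values. The resistant lines had a smaller gap, with 158, 127 and 168 CPM in RES-A and 27.5, 19.3 and 36.7 CPM in RES-B. Cells called G1 made up 71.4% to 76.6% of LNCaP and the resistant lines and 84.5% of LNCaP-ENZ48. GSTO1 ran the other way in G2/M, which lay above G1 in all 4 libraries, by 0.19 to 0.56 on the log2 scale. For the other 6 members over 10 CPM, S and G2/M lay between -0.76 and 0.28 of G1 on the log2 scale.

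The cells that held GSTA1 shared other genes weakly. Over 1782 LNCaP cells the highest Pearson correlations with GSTA1 were those of MT1G, a metallothionein, with 0.31, the vesicle protein gene SYT4 with 0.29, the elongation factor gene EEF1A1 with 0.23, S100P with 0.21 and KLK3 with 0.17. The first 4 led in the same order over 4315 LNCaP-ENZ48 cells, with 0.33, 0.33, 0.30 and 0.22, followed by the chaperone gene HSP90AB1 with 0.21. In RES-A (4569 cells) the leading genes were ICK with 0.15, TMEM14A with 0.15, IGFBP5 with 0.14 and FTL with 0.13. In RES-B (4061 cells) they were TMEM14A with 0.13, TMSB10 with 0.11, VIM with 0.10, RPL13 with 0.09 and GSTA4 with 0.09. These values are descriptions of sparse counts from cells of the same library, and those of the resistant lines are close to 0. ICK, TMEM14A and GSTA4 lie beside GSTA1 on chromosome 6. EEF1A1 and HSP90AB1 are among its 50 nearest expressed genes there but are not close to it, at 20.7 and -8.55 Mb.

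The surroundings of the alpha genes on chromosome 6 were therefore measured, over the 25 expressed protein-coding genes on each side of GSTA1, members left out. Against LNCaP their median log2 ratio was -0.04 for LNCaP-ENZ48, 0.47 for RES-A and 0.87 for RES-B, beside -0.08, 0.02 and 0.12 over 7206 expressed protein-coding genes. Of the 50 neighbours, 28, 43 and 47 lay above that median of all genes. GSTA1 at 3.22 and GSTA2 at 3.19 stood far above their neighbours in RES-A, whereas in RES-B their 0.70 and 0.76 lay near the neighbours' median, as did GSTA4 in RES-A. Between the resistant lines the neighbours ran higher in RES-B, with a median of 0.41, and GSTA4 with them at 0.96, while GSTA1 and GSTA2 ran lower. GCLC, the catalytic subunit of the first enzyme of glutathione synthesis and the fourth expressed gene after GSTA1, had the same order as GSTA1, with 8.50 CPM in LNCaP, 8.61 CPM in LNCaP-ENZ48, with 33.9 CPM for RES-A and 15.4 CPM for RES-B. The surroundings of the other members moved less against LNCaP, between -0.39 and 0.37 relative to all genes. The neighbours spanned -10.1 to 30.4 Mb from GSTA1, across the centromere, and why the neighbours ran high was not tested.

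**Figure D4:**
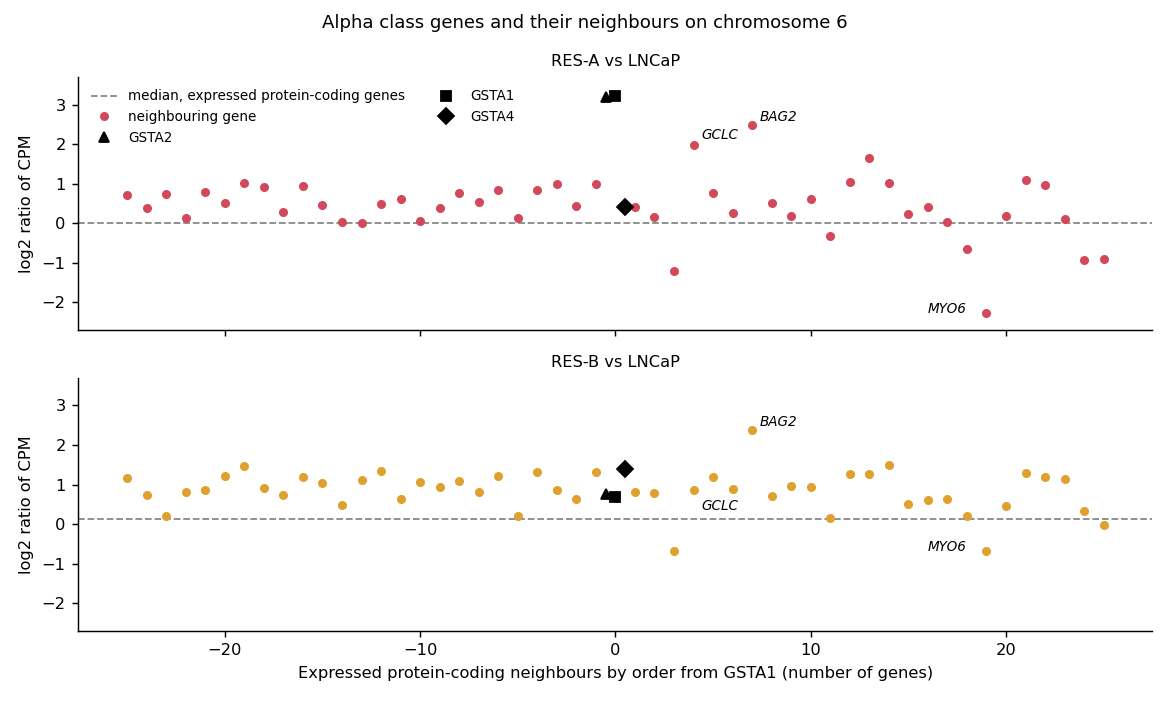
Log2 ratios of CPM of the 50 expressed protein-coding neighbours of GSTA1 by their order along chromosome 6, in RES-A and RES-B against LNCaP, with GSTA1, GSTA2 and GSTA4 in black and the median of expressed protein-coding genes as a dashed line. Most neighbours lie above the line, 43 of 50 for RES-A and 47 of 50 for RES-B, and GSTA1 and GSTA2 stand above them at 3.22 and 3.19 in RES-A, while at 0.70 and 0.76 they lie among them in RES-B.

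The genes most like GSTA1 over the 4 libraries, by Euclidean distance of centred log2(CPM + 1) among 7451 genes, were the retinol dehydrogenase gene RDH10 (6.19, 12.3, 90.6 and 10.5 CPM), EIF1B (76.5, 82.8, 439 and 94.5 CPM) and the calcium pump gene ATP2B1 (40.4, 66.9, 265 and 78.2 CPM). For GSTA2 they were QRICH2, FUCA2 and BEX5, at distances of 0.26 to 0.52. For GSTA4 they were ENAH, CRELD2 and SLC22A31, at 0.10 to 0.14. Likeness over 4 libraries holds only the pattern of 1 high library in each case.

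Of the 17 other genes of the family and of related membrane enzymes, 15 were found in the matrices and 2 or 3 reached 10 CPM. LTC4S, which makes leukotriene C4, was the 1 of 3 genes at least 2-fold higher in RES-B against LNCaP (all genes, 4.82%). It stood at 14.8 against 6.53 CPM (log2 ratio 1.18, 0.99 to 1.37) and reached the mean of 10 CPM through RES-B. In RES-A against LNCaP it was under that mean and not counted, at 11.6 CPM in RES-A (log2 ratio 0.83, 0.63 to 1.02). Of the 2 genes counted there, 0 passed 2-fold either way (all genes, 3.74% higher and 4.15% lower). The same held for the 2 counted in LNCaP-ENZ48 (all genes, 0.192% and 0.645%).

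Genes of glutathione synthesis, uptake and breakdown lay on both sides of LNCaP. At 10 CPM, 2 of 10 were at least 2-fold higher (all genes, 3.74%) and 2 of 10 at least 2-fold lower (all genes, 4.15%) in RES-A against LNCaP. In RES-B these counts were 0 (all genes, 4.82%) and 1 of 10 (all genes, 3.08%). In LNCaP-ENZ48 0 of 8 passed either way (all genes, 0.192% higher and 0.645% lower). GCLC was 3.99-fold higher in RES-A (log2 ratio 2.00, 1.84 to 2.15) and CHAC2, which breaks glutathione down, was higher by 1.22 (1.05 to 1.39). SLC7A11, the cystine importer that feeds the pathway, was lower in both resistant lines, with 170 CPM in LNCaP, with 44.7 CPM for RES-A and 69.1 CPM for RES-B. GGCT, an enzyme of glutathione turnover, was lower in RES-A (log2 ratio -1.16). Between the resistant lines GCLC was lower in RES-B (log2 ratio -1.14, -1.26 to -1.02) as 1 of 10 genes (all genes, 1.7%), and 0 were higher (all genes, 3.37%). With 10 genes, these counts are too few to set the list apart from all genes. The list had a median ratio to LNCaP of -0.42 after 48 h, -0.24 for RES-A and -0.10 for RES-B.

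Of 15 genes listed for glutathione-dependent reduction, which clears peroxides and disulfides, 1 was at least 2-fold higher in RES-A against LNCaP (all genes, 3.74%) and 0 lower (all genes, 4.15%). In RES-B 0 were higher (all genes, 4.82%) and 1 lower (all genes, 3.08%). In LNCaP-ENZ48 0 passed either way (all genes, 0.192% higher and 0.645% lower). A count of 1 in 15 is near these shares of all genes. The lipid peroxidase gene GPX4 stood at 552 CPM in LNCaP and 1151 CPM in RES-A (log2 ratio 1.06, 1.04 to 1.08). Glutathione reductase, GSR, was at 52.7 CPM in LNCaP, with 44.6 CPM for RES-A and 22.0 CPM for RES-B. GLO1, which clears methylglyoxal with glutathione, was 3.32-fold higher in RES-B, at 288 CPM, than the 86.8 CPM of RES-A. It was the 1 of 15 genes at least 2-fold higher there (all genes, 3.37%), with GSR the 1 at least 2-fold lower (all genes, 1.7%). These counts too are too few to set the list apart from all genes. The list's medians were 0.03, 0.07 and 0.17.

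The parallel thioredoxin system had 1 of 13 genes at least 2-fold higher in each resistant line (all genes, 3.74% for RES-A and 4.82% for RES-B), the sestrin gene SESN3, at 45.2 CPM in LNCaP, with 166 CPM for RES-A and 101 CPM for RES-B. Thioredoxin reductase, TXNRD1, was lower in both (370, 166 and 158 CPM in LNCaP, RES-A and RES-B). The thioredoxin inhibitor TXNIP was lower in RES-A alone (474, 193 and 441 CPM). That made 2 of 13 genes lower for RES-A (all genes, 4.15%) and 1 of 13 for RES-B (all genes, 3.08%). For LNCaP-ENZ48 it was 0 either way (all genes, 0.192% higher and 0.645% lower). TXNIP was also the 1 of 13 higher in RES-B when set against RES-A (all genes, 3.37%). Counts of 1 in 13 are near these shares and are no result about the list. The list had medians of 0.09, 0.00 and -0.10.

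Regulators and targets of NRF2 lay on both sides of LNCaP. In RES-A 3 of 20 were 2-fold or more higher (all genes, 3.74%) and 3 of 20 lower (all genes, 4.15%) than in LNCaP. In RES-B the counts were 3 of 22 higher (all genes, 4.82%) and 3 of 22 lower (all genes, 3.08%). In LNCaP-ENZ48 they were 0 (all genes, 0.192%) and 1 of 19 (all genes, 0.645%). The lists overlap, and GCLC, SLC7A11 and TXNRD1 were already counted in the lists above. With 19 to 22 genes, these counts are too few to set the list apart from all genes. The median ratios to LNCaP were -0.01 for RES-A, 0.18 for RES-B and -0.04 for LNCaP-ENZ48. Among the higher genes, the epoxide hydrolase EPHX1 stood at 66.4 CPM in LNCaP, with 461 CPM for RES-A and 280 CPM for RES-B, and the autophagy receptor SQSTM1 at 151, 543 and 430 CPM. AKR1C3, which makes androgens from precursors, was at 0.538 CPM in LNCaP, with 11.1 CPM for RES-A and 23.6 CPM for RES-B; it has near copies, so its level is uncertain. Among the lower genes, the heme oxygenase gene HMOX1 stood at 97.6 CPM in LNCaP, 47.6 CPM in LNCaP-ENZ48, with 8.88 CPM for RES-A and 15.1 CPM for RES-B, beside SLC7A11 and TXNRD1. Between the resistant lines 1 of 22 genes, AKR1C3, was at least 2-fold higher in RES-B (all genes, 3.37%) and 1 of 22, GCLC, lower (all genes, 1.7%). Among the counted genes past 2-fold in RES-A, GCLC, EPHX1 and SQSTM1 thus lay on the side of GSTA1, and HMOX1, SLC7A11 and TXNRD1 on the other. That split leaves out genes under the minimum of 10 CPM. Of those, AKR1C1, AKR1C2 and AKR1C3 were higher in RES-A than in LNCaP, and SRXN1 was lower. The split also leaves out genes inside 2-fold, such as NQO1 (log2 ratio 0.87, 0.84 to 0.90) and GCLM (-0.87, -0.92 to -0.81).

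Of 4 genes for exporters of glutathione conjugates over 10 CPM, 2 were at least 2-fold lower in RES-B (all genes, 3.08%) and 1 in RES-A (all genes, 4.15%). At least 2-fold higher were 0 in RES-B (all genes, 4.82%) and 0 in RES-A (all genes, 3.74%). In LNCaP-ENZ48 0 passed 2-fold either way (all genes, 0.192% higher and 0.645% lower). With 4 genes, these counts are too few to set the list apart from all genes. ABCC4 lay furthest below LNCaP, with 44.6 CPM there, 3.26 CPM for RES-A and 5.15 CPM for RES-B (log2 ratios -3.77, -4.00 to -3.56, and -3.11, -3.30 to -2.93). ABCC1 stood at 23.3 CPM in LNCaP and 11.4 CPM in RES-B. The medians were -0.50, -0.90 and -0.72 over these few genes.

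**Figure D5:**
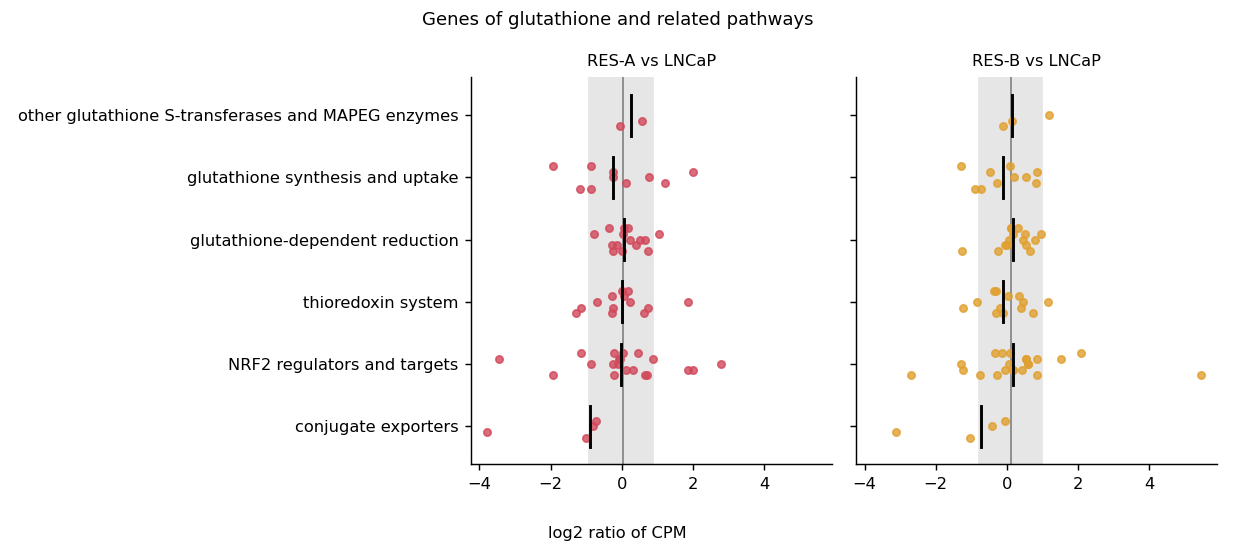
Log2 ratios of CPM in RES-A and RES-B against LNCaP for genes of 6 pathway lists at a mean of at least 10 CPM, with 1 point per gene, a black bar for the list's median and a grey band for the 5th to 95th percentile of all genes tested. Lists spread to both sides of the band, with ABCC4 among the exporters at -3.77 and -3.11 and AKR1C3 among NRF2 genes at 5.46 in RES-B.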

How the data were processed

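RNA was measured in 4 libraries of sorted living cells with droplet-based 3′ chemistry. The deposited values are UMI counts per gene and barcode, which the authors made with Cell Ranger 3.0.2 on GRCh38; barcode and gene lists accompany them. That software uses reads of the sense strand that belong to 1 gene alone, which leaves near copies under-counted.

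Cells were kept by the study's limits. LNCaP cells had 3000 to 7000 genes, 16000 to 50000 UMIs and under 15% mitochondrial UMIs. The others had 1500 to 5000 genes, 5000 to 25000 UMIs and under 15% (LNCaP-ENZ48), 17% (RES-A) or 20% (RES-B). Doublets were not called. UMIs were summed per library and divided by the total (CPM). Depth was 50208831 to 60838227 UMIs, and intervals and floors (3 UMIs) cover counting error only. A gene entered a count at a mean of 10 CPM over the compared libraries, and past 2-fold was called a difference of size, with no test.

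Phases came from scanpy 1.11.5 with 42 S and 52 G2/M genes found, shares from cells thinned to 5000 UMIs, positions from GENCODE 44 matched by gene ID (33113 of 33538 found), and promoters from RefSeq on GRCh38.p14 (9 of 10 members). Alternatives were other cell filters, TMM (edgeR 4.0.16), DESeq2 1.42.0 size factors, means over cells, G1 cells, omission of the 5% of cells with the most UMIs, a fold of 1.5 and other CPM minimums. Interval and thinning code was tested on simulated data. Named genes were every member, listed genes past 2-fold (at most 3 each way per list and comparison), the 3 genes most like each member with a 2-fold difference, and the 5 best correlated with GSTA1 per library, of which 1 is not reported here. GSTP1 met that rule on a few UMIs, and genes like it are not named since its log2(CPM + 1) barely varies. Members and lists were chosen with earlier results of these data known. GSTT1, GSTT2 and GPX1 are not analysed here.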

Additional observations from a re-analysis of the deposited data

Results flagged for a closer look

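Among the 10 members, 2 moved in opposite directions from LNCaP in different groups, beyond counting error; with 1 library per group the difference was not tested. GSTA2 had a log2 ratio to LNCaP of -1.28 in LNCaP-ENZ48 but 3.19 in RES-A and 0.76 in RES-B, on 56 UMIs in LNCaP, 28 after 48 h of drug, 583 for RES-A and 99 for RES-B. MGST2 had a log2 ratio of 0.38 in LNCaP-ENZ48 and 0.19 in RES-A but -0.079 in RES-B, all within 1.5-fold of LNCaP.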

How the results depend on the processing

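With 1 library per group, differences between cultures cannot be measured, and no replicate could be left out. No paired analysis was possible because each group holds 1 library. The log2 ratios of 9 members (GSTP1 apart) were recomputed under 7 alternatives in 4 comparisons and kept their direction throughout, except MGST1 in LNCaP-ENZ48 against LNCaP, which lay at 0.02 and moved to -0.00308 as a mean over cells. GSTA1 in RES-A against LNCaP ranged from 3.003 in cells called G1 to 3.35 as a mean over cells, and the largest shift of any member was 0.22. The counts of members past 2-fold were the same under all 7, and a fold of 1.5 changed them. At 1.5-fold, 1 member was higher in LNCaP-ENZ48, 3 in RES-A, 3 in RES-B, and 1 in RES-B against RES-A, and 1 was lower in RES-B against LNCaP.

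The summed log2 ratio of LNCaP-ENZ48 to LNCaP was 0.25 with TMM, 0.26 with DESeq2 size factors and 0.137 in G1 cells. For RES-A it was 0.556 with TMM, 0.570 with size factors, 0.59 as a mean over cells and 0.592 in G1 cells. For RES-B it was 0.233, 0.240 and 0.31 under TMM, size factors and G1 cells, and 0.316 with no cell filter. RES-B against RES-A gave -0.323, -0.330 and -0.292 with TMM, size factors and no cell filter. Each kept its direction. Of the list medians, 41 of 140 alternatives moved by over 0.1. Shares of cells with a UMI move with the depth they are thinned to, and 83 of 160 left the interval of the main value.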
